A study of Homo sapiens with 8 samples.

Results

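The keratin genes encode the intermediate filament proteins of epithelial cells. They were taken here as the protein-coding rows of the deposited gene table whose symbol is KRT followed by a number, with or without a letter from A to C. This gave 55 genes of 38637 listed, of which 19439 are protein coding. RNA-seq was done on SW1990, an established line of human pancreatic cancer cells, in 8 libraries of 4 groups with 2 libraries each. Vector cells carried the empty expression construct and EBF2-OE cells overexpressed EBF2, a transcription factor of the early B-cell factor family. Vehicle cells received the carrier alone and GSK-LSD1 cells received GSK-LSD1, an inhibitor of the histone demethylase KDM1A (LSD1), which the sample titles give as 2000 µM. This is above every dose of the drug that the paper states for cells. The paper gives no dose for these libraries, so the labelled value and its unit could not be checked. The labels do not say whether the libraries of a group came from separate cultures, so the p-values measure only the spread between these libraries, which may be technical.

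Keratins come as acidic type I and basic type II proteins, and a filament is built from pairs of both types. Epithelial cells choose their pairs by tissue. Simple epithelia such as glands and ducts use KRT8 with KRT18, together with KRT7, KRT19 or KRT20. The basal layer of stratified epithelia uses KRT5 with KRT14 or KRT15, the layers above it switch to pairs such as KRT1 with KRT10 or KRT4 with KRT13, and KRT6, KRT16 and KRT17 are induced on injury. A large further group builds hair and its root sheath. The normal pancreatic duct is known for KRT7, KRT8, KRT18 and KRT19. The members were therefore grouped into 5 simple, 3 basal, 5 injury-induced, 14 stratified and 26 hair and root sheath keratins, with KRT23 and KRT222 left as 2 others.

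The 55 genes divide into 29 of type I and 26 of type II. They lie in a pair of clusters, given in hg38 as the deposited table lists them. The cluster on chromosome 17 holds 28 genes between 40654665 and 41624575, a span of 969.9 kb, and every gene there is on the reverse strand. The cluster on chromosome 12 holds 27 genes between 52168996 and 52952906, a span of 783.9 kb, with 24 on the reverse strand. KRT18 is the type I gene at the end of the chromosome 12 cluster, next to KRT8.

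Promoter sequences are shown for KRT34 and KRT5, the keratins with the largest rise and the largest fall in GSK-LSD1 among those tested. Each runs 5′ to 3′ from 250 bases before to 50 bases after the RefSeq transcription start in GRCh38.p14. Capitals mark a match to TATAAA, the core of the TATA box. The KRT34 promoter is chr17:41382257-41382556 on the reverse strand, and its RefSeq start lies inside the interval that the deposited table lists for the gene. The KRT5 promoter is chr12:52520345-52520644 on the reverse strand.
KRT34: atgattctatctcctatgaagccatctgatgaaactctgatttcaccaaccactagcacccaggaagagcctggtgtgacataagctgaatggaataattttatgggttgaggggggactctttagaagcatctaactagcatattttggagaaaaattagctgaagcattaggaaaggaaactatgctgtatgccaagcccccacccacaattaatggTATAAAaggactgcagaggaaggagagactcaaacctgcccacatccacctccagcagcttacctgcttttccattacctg
KRT5: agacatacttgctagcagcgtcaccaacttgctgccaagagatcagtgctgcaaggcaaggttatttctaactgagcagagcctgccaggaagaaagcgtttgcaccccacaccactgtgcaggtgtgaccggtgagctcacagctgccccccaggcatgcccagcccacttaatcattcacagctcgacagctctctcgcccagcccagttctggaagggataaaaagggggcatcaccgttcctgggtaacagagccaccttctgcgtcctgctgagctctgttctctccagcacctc
KRT34 has TATAAA with its first base at position -31 from the start. KRT5 has none of the motifs searched in this window. RefSeq promoter entries were found for 34 of the 55 keratins, with 38 entries in all. No entry was found for 21 members, among them KRT7, KRT16, KRT17, KRT18 and KRT81. TATAAA on either strand was found in 21 of the 38 keratin entries (55.3%) and in 11.5% of all 35116 promoters of the same length. Of the 13 matched keratins with at least 10 counts in these cells, 5 had an entry with TATAAA, and of the 21 matched keratins with fewer counts, 16 did. The GC box core GGGCGG was found in 15.8% of keratin entries and in 45% of all promoters. CCCNNGGG was found in 13.2% against 19.1%. TGANTCA, found in 7.71% of all promoters, and AACCNGGTT, found in 0.239%, were in none of the keratin entries. Both strands were searched, and no motif shares its letters with another of these. A match describes the letters only.

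The libraries held between 20453362 and 27054876 counts on genes, and keratins took between 0.434% and 0.592% of them. EBF2, the gene overexpressed, had 28 counts in each Vector library, 5818 in EBF2-OE replicate 2 and 90100 in EBF2-OE replicate 3, and between 24 and 40 in each of the other libraries. The EBF2-OE libraries thus differ widely from each other in EBF2 itself. Its log2 fold change was 10.75 (SE 1.55, n = 2 each), with an adjusted p = 0.9998 by edgeR and an adjusted p = 7.35e-09 by DESeq2. Of the epithelial markers checked, CLDN4 and CLDN7, tight junction claudins, were at 19.8 to 67.1 and 45.5 to 121 TPM (counts divided by gene length and scaled to a common total). EPCAM and CDH1 (E-cadherin), which define epithelial cells, were at no more than 1.42 and 1.12 TPM. Of the 6 duct cell markers checked, MUC1 was at 123 to 193 TPM and CFTR at no more than 0.720 TPM. The 4 immune markers checked summed to 11.4 to 31.02 TPM over the libraries, most of it CD68 at 10.9 to 30.9 TPM. LYZ was at no more than 3.75 TPM, PTPRC, which defines white blood cells, at no more than 0.122 TPM and CD3E at 0.

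SW1990 cells expressed a small set of keratins at very unequal levels. Of the 55 genes, 16 had no count in any library, which at this depth allows up to 3 counts over all libraries together. A further 15 had between 1 and 9 counts over all libraries, and 24 had at least 10. The mean TPM over the 8 libraries reached 1 for 12 keratins and 100 for 5 of them, KRT8, KRT18, KRT7, KRT17 and KRT80. These 5 and KRT10 held between 99.3% and 99.6% of all keratin TPM in each library.

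The simple keratins were the most abundant class in every group. Their summed level was 4640 ± 263 TPM in Vector, 5702 ± 500 TPM in EBF2-OE, 7040 ± 62.0 TPM in Vehicle and 5190 ± 11.9 TPM in GSK-LSD1 (mean ± SD, n = 2 each). As a share of keratin TPM they ranged from 81.8% ± 2.83 in Vector to 93.6% ± 0.0131 in Vehicle. The injury-induced class came next in every group, at 812 ± 152, 799 ± 317, 245 ± 10.7 and 445 ± 1.90 TPM in the same order. The stratified class lay between 198 and 214 TPM in all 4 group means and was almost all KRT80 and KRT10. Hair and root sheath keratins summed to 21.6 ± 0.694, 20.8 ± 1.53, 20.6 ± 2.13 and 17.9 ± 0.981 TPM. Basal keratins were near absence, at 1.07 ± 0.632, 0.727 ± 0.454, 2.36 ± 0.964 and 1.01 ± 0.193 TPM. The order of these 5 classes was thus the same in the 4 groups. With 2 libraries a group, a two-sided exact permutation test cannot go below p = 0.333, so class sums were not tested.

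**Figure D1:**
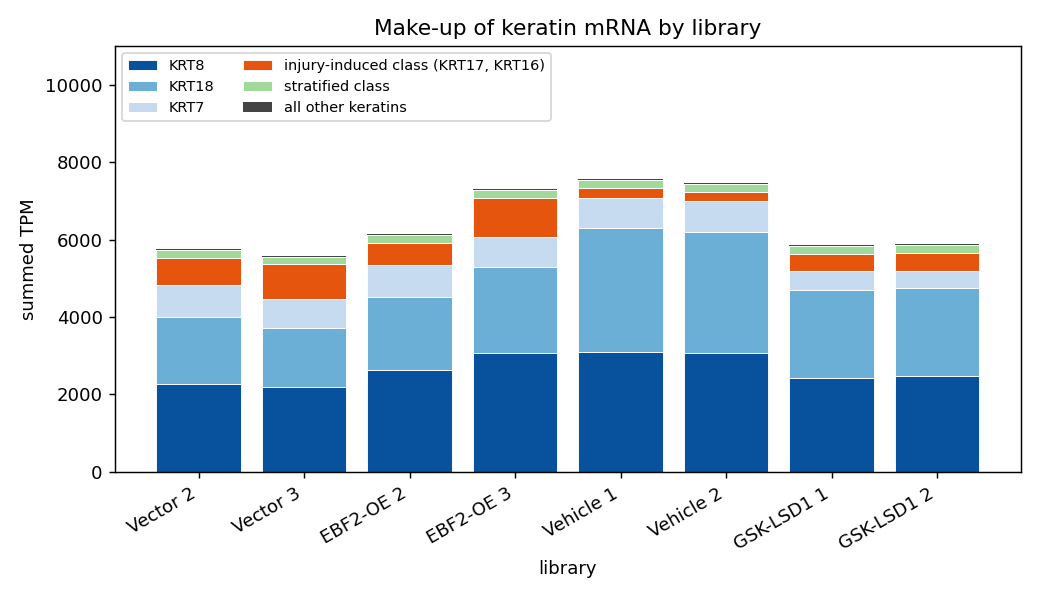
Summed TPM of the keratins in each of the 8 libraries (y axis, linear from 0), stacked by KRT8, KRT18, KRT7, the injury-induced class, the stratified class and all other keratins. KRT8 and KRT18 make up between 66.3% and 83.2% of each bar, and the injury-induced segment is smallest in the Vehicle libraries.

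Among the simple keratins, KRT8, the type II partner of KRT18, ranged over the libraries from 2186 to 3094 TPM, and KRT18 from 1516 to 3200 TPM. Their balance differed between the experiments. The ratio of KRT8 to KRT18 TPM was 1.32 and 1.44 in Vector and 1.38 and 1.37 in EBF2-OE, against 0.967 and 0.973 in Vehicle and 1.06 and 1.08 in GSK-LSD1. The type II to type I ratio over all keratins stayed between 1.12 and 1.45. KRT8 and KRT18 overlap by 1006 bases on opposite strands and the strand setting of the counting is not stated, so reads in that stretch cannot be assigned between them.

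KRT7, a type II keratin of duct epithelium, lay between 751 and 841 TPM in the Vector, EBF2-OE and Vehicle libraries. KRT20, a type I keratin of the gut lining, lay between 0.285 and 2.15 TPM. KRT19, the type I keratin of ducts and a common marker of pancreatic cancer cells, was close to absence, with 2 and 0 counts in Vector, 1 and 0 in EBF2-OE, 1 and 0 in GSK-LSD1 but 21 and 9 in Vehicle. The simple set of these cells was therefore KRT8, KRT18 and KRT7, with KRT19 at no more than 1.57 TPM.

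KRT17, a type I keratin of injured skin and hair follicle, made up nearly all of the injury-induced class. The type II keratins of this class were near absence, since KRT6A and KRT6C had no count and KRT6B had fewer than 10 counts in all. KRT16, a type I keratin of the same class that lies next to KRT17, lay between 2.70 and 12.9 TPM. KRT14 had fewer than 10 counts over the 8 libraries. In the stratified class, KRT80, a widely expressed type II keratin, lay between 146 and 181 TPM and KRT10, the type I keratin of the suprabasal epidermis, between 28.2 and 42.1 TPM. KRT13 and KRT4 had fewer than 10 counts each. Of the hair keratins, KRT81, KRT86 and KRT34 were the most abundant, at 4.83 to 11.8, 4.47 to 8.99 and 0.562 to 7.97 TPM.

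**Figure D2:**
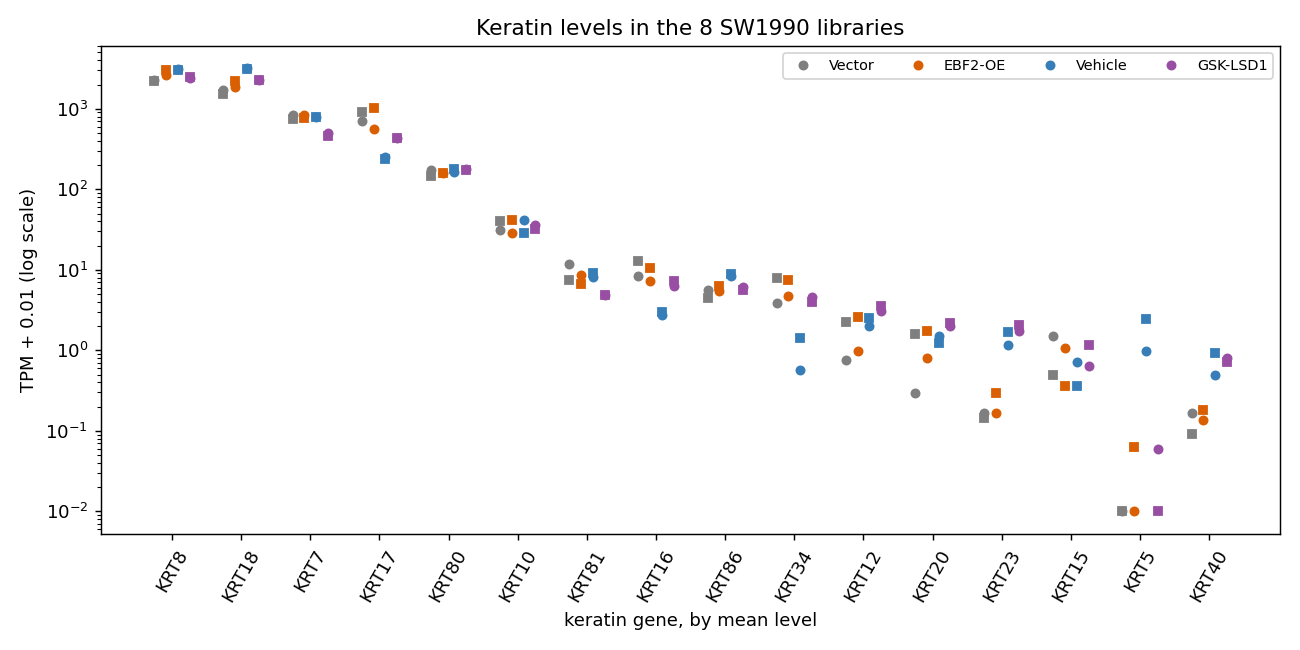
TPM + 0.01 on a log axis for the 16 keratins with at least 80 counts over all libraries, ordered by mean level, with 1 point for each library (circle for the lower and square for the higher replicate number, colour for the group). KRT8 and KRT18 lie at the top, and KRT5 is near or at 0 outside the Vehicle libraries.

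The members with signal were spread over both clusters rather than gathered at 1 site. At least 10 counts were seen for 10 of the 27 genes on chromosome 12 and for 14 of the 28 on chromosome 17. On chromosome 12 the abundant genes sat at the ends. KRT80 (52168996 to 52192014) and KRT7 (52233243 to 52252667) are the first 2 genes of the cluster, and KRT8 (52897191 to 52949860) and KRT18 (52948855 to 52952906) are the last 2. On chromosome 17, KRT17 (41619442 to 41624575) is the last gene and KRT16 (41609778 to 41612767) the one before it, with 6674 bases between them. KRT15 and KRT19, at 1692 bases from each other, were both at low levels.

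**Figure D3:**
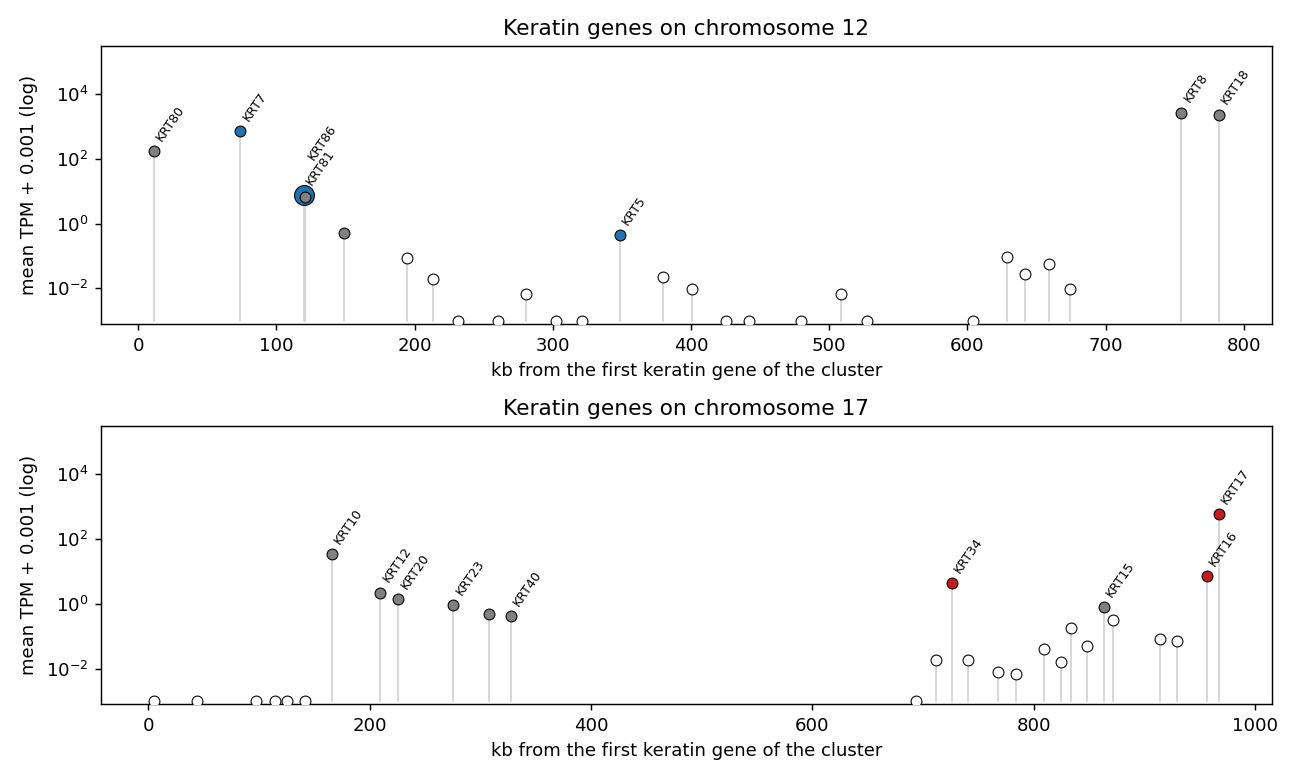
Mean TPM + 0.001 over the 8 libraries (log axis) against the distance in kb from the first keratin gene of each cluster. Filled points were tested in GSK-LSD1 against Vehicle (red called higher, blue called lower, grey not called) and open points were not tested. KRT81 is drawn larger, since KRT86 lies in front of it. The chromosome 12 genes with over 100 TPM lie at both ends of the cluster, and KRT16 and KRT17, both red, lie at the end of the chromosome 17 cluster.

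To ask whether EBF2 overexpression moved keratins, EBF2-OE was set against Vector. Of the 55 keratins, 13 had enough counts to be tested among 15560 genes. The edgeR quasi-likelihood test had to give an adjusted p under 0.05, and the fold had to exceed 1.5, for a gene to be called. By this rule 0 keratins were called, as were 0% of all genes tested. EBF2 itself was not called, with an adjusted p = 0.9998 by edgeR, so a count of 0 here does not show that keratins were unmoved. DESeq2 called 0 keratins as well, beside 0.0275% of all genes, and at an unadjusted p under 0.05 with the same fold limit the count was again 0, where 0.951% of all genes were past it. These libraries varied more between replicates than those of the other experiment, with a common biological coefficient of variation of 19.0% against 5.87%.

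The simple pair had the smallest p-values of the tested keratins. KRT8 was at 2268 and 2186 TPM in Vector and at 2616 and 3064 TPM in EBF2-OE. KRT18 was at 1722 and 1516 TPM in Vector and at 1890 and 2233 TPM in EBF2-OE. Both EBF2-OE libraries lay above both Vector libraries for each gene, and EBF2-OE replicate 3 was the highest of the 4. The log2 fold change of KRT8 was 0.38 (SE 0.117, unadjusted p = 0.0171, adjusted p = 0.9998 by edgeR), and that of KRT18 was 0.38 (SE 0.129, unadjusted p = 0.0255, adjusted p = 0.9998 by edgeR). On the CPM scale (normalized counts, not per length) KRT86 was the third keratin whose groups did not overlap. In all 3 of 13 keratins lay higher in both EBF2-OE libraries and 0 lower, where 12.1% and 10.8% of all tested genes did so.

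The other keratins overlapped between the groups. KRT7 was at 836 and 751 TPM in Vector and at 841 and 757 TPM in EBF2-OE, a log2 fold change of 0.04 (SE 0.111). KRT80, at 174 and 146 TPM against 160 and 161 TPM, had a log2 fold change of 0.03 (SE 0.124). KRT17 was at 696 and 906 TPM in Vector and at 568 and 1012 TPM in EBF2-OE, a log2 fold change of 0.0081 (SE 0.291). In both groups the library numbered 3 held more KRT17 than the library numbered 2, by more than the group means differed. The same order by library number was seen for KRT16, at 8.46 and 12.9 TPM against 7.29 and 10.6 TPM, with a log2 fold change of -0.23 (SE 0.331). KRT34, at 3.82 and 7.97 TPM against 4.70 and 7.38 TPM, had a log2 fold change of 0.06 (SE 0.446). It was also seen for KRT20, whose log2 fold change was 0.43 (SE 0.833), for KRT12, a corneal type I keratin at 0.27 (SE 0.713), and for KRT10 at -0.0074 (SE 0.240). KRT15, a basal type I keratin, went the other way by number, at 1.51 and 0.485 TPM in Vector and 1.05 and 0.353 TPM in EBF2-OE, with a log2 fold change of -0.47 (SE 0.746). KRT7 and KRT81 went the same way by number as KRT15. KRT81 was at 11.8 and 7.53 TPM in Vector and 8.69 and 6.66 TPM in EBF2-OE, with a log2 fold change of -0.30 (SE 0.297). KRT86 had a log2 fold change of 0.26 (SE 0.193). The adjusted p was 0.9998 by edgeR for each of these genes.

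Too few counts for the test were left by KRT85, a type II hair keratin, with 0 and 0 counts in Vector and 2 and 12 in EBF2-OE. Against a floor of 3 counts over the Vector group this was 4.85-fold higher. The lower limit of the 95% exact counting interval, which covers counting error only, was 3.45. Most of the counts came from EBF2-OE replicate 3. KRT23, KRT40, KRT83, KRT39 and KRT5 had at most 6 counts in any of these 4 libraries. The median log2 fold change of the 13 tested keratins was 0.04, beside 0.0035 over all genes tested.

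GSK-LSD1 was set against Vehicle to ask which keratins differ in cells given the inhibitor. KDM1A activity was not measured in these libraries. KRT17, KRT16 and KRT34 rose and KRT7, KRT81 and KRT5 fell, while KRT80 and KRT10 had log2 fold changes of 0.07 (SE 0.0535) and -0.01 (SE 0.155). Of the 55 keratins 18 were tested among 16059 genes. By the edgeR rule 3 were called higher and 3 lower, 6 of 18, where 2.53% of all tested genes were called higher and 2.04% lower. KRT5 had 1 and 0 counts in GSK-LSD1 and entered the test only through the Vehicle libraries. Its direction was thus fixed once it was tested, and its call adds no support to this count.

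In the injury-induced class both tested members rose. KRT17 was at 250 and 235 TPM in Vehicle and at 437 and 439 TPM in GSK-LSD1, so that the groups were well apart and the replicates close. Its log2 fold change was 0.89 (SE 0.0553, adjusted p = 4.94e-06 by edgeR), a 1.85-fold increase. KRT16 was at 2.70 and 3.02 TPM in Vehicle and at 6.28 and 7.29 TPM in GSK-LSD1, with a log2 fold change of 1.28 (SE 0.190, adjusted p = 0.00129 by edgeR), a 2.42-fold increase. The listed pseudogene copies of KRT16 and KRT17 had at most 4 counts each in any library, and how reads shared between copies were counted is not stated.

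In the simple class 1 of the 4 tested members fell past both limits. KRT7 was at 787 and 792 TPM in Vehicle and at 497 and 459 TPM in GSK-LSD1, a log2 fold change of -0.69 (SE 0.0529, adjusted p = 2.19e-05 by edgeR) or 1.61-fold lower. KRT18 was at 3200 and 3144 TPM in Vehicle against 2271 and 2273 TPM with the inhibitor. The adjusted p = 4.11e-05 by edgeR passed, but the log2 fold change of -0.45 (SE 0.0385), a fold of 1.36, was under the limit of 1.5. KRT8 was at 3094 and 3058 TPM in Vehicle and at 2412 and 2465 TPM in GSK-LSD1. Here too the adjusted p = 0.000251 by edgeR passed and the fold of 1.23, a log2 fold change of -0.30 (SE 0.0345), did not. For all 3 abundant simple keratins both GSK-LSD1 libraries lay below both Vehicle libraries. KRT20 was at 1.499 and 1.23 TPM against 2.01 and 2.15 TPM, with a log2 fold change of 0.64 (SE 0.297, adjusted p = 0.161 by edgeR). KRT19 had 30 counts in Vehicle and 1 in GSK-LSD1, too few for the test, a ratio of 26.3 with a 95% exact counting interval of 4.37 to 1072, in the direction of Vehicle. This interval and the others of this kind cover counting error only.

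KRT7 is overlapped by KRT7-AS on the opposite strand over 2406 bases and by the pseudogene KRT87P over 2124 bases. KRT7-AS had a log2 fold change of -0.66 (SE 0.0980, adjusted p = 0.00128 by edgeR). Since the strand setting is not stated, the reads of KRT7 and of its antisense gene cannot be told apart where they overlap, and the fall of KRT7-AS cannot be taken as a separate observation.

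Of the basal class, KRT5 was called lower and KRT15 was not called. KRT5, the type II keratin of basal cells at chromosome 12 52514575 to 52520394, was counted 21 and 57 times in the Vehicle libraries and 1 and 0 times with GSK-LSD1, and its promoter is the second sequence printed above. Its level in Vehicle was no more than 2.45 TPM. The edgeR test called it lower with an adjusted p = 0.00173, and the ratio of counts was 68.3 with a 95% exact counting interval of 11.9 to 2733. DESeq2 gave no adjusted p for this gene. KRT15 was at 0.699 and 0.355 TPM in Vehicle and at 0.626 and 1.15 TPM in GSK-LSD1, which overlap, with a log2 fold change of 0.79 (SE 0.445, adjusted p = 0.252 by edgeR). TP63, the master regulator of basal epithelial cells, had a log2 fold change of 1.97 (SE 0.452, adjusted p = 0.0129 by edgeR) at levels of no more than 0.404 TPM, and KRT14 was at no more than 0.235 TPM. TP63 was at 0.0737 and 0.109 TPM in Vehicle and entered the test only through the GSK-LSD1 libraries. Its direction was thus fixed once it was tested. The 5 squamous or basal markers checked summed to 24.4 and 26.0 TPM in Vehicle and to 28.4 and 28.2 TPM in GSK-LSD1, nearly all of it S100A2, the 1 marker of the list with a mean of at least 1 TPM. The part of such cells in the KRT5 result was not tested. In RNA from whole cultures, fewer cells of a kind and less RNA per cell cannot be told apart.

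Of the 26 hair and root sheath keratins 6 were tested, and 1 rose and 1 fell. KRT34, a type I hair keratin at chromosome 17 41377665 to 41383816, was at 0.562 and 1.40 TPM in Vehicle and at 4.62 and 4.002 TPM in GSK-LSD1. Its log2 fold change was 2.14 (SE 0.329, adjusted p = 0.00150 by edgeR), a 4.42-fold increase, and its promoter is the first sequence printed above. KRT81, a type II hair keratin, was at 8.14 and 9.17 TPM in Vehicle and at 4.83 and 4.85 TPM in GSK-LSD1, with a log2 fold change of -0.80 (SE 0.150, adjusted p = 0.00453 by edgeR). Without GSK-LSD1 replicate 2 it was no longer called. All of KRT81 lies within KRT86, an overlap of 5622 bases on the opposite strand. Since the strand setting is not stated, reads in that stretch cannot be assigned between them. KRT86 was at 8.45 and 8.99 TPM against 6.08 and 5.57 TPM, a log2 fold change of -0.55 (SE 0.0977, adjusted p = 0.00363 by edgeR). Its fold of 1.46 was under the limit, and its fall cannot be taken as a separate observation from that of KRT81. KRT83 was at 0.555 and 0.718 TPM against 1.05 and 1.22 TPM, a log2 fold change of 0.85 (SE 0.401, adjusted p = 0.167 by edgeR). KRT39 and KRT40 overlapped between the groups, at log2 fold changes of 0.38 (SE 0.465) and 0.15 (SE 0.349). KRT36 had 3 counts in each GSK-LSD1 library and none in Vehicle, and no fold is given for so few reads.

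None of the 3 tested stratified keratins was called. KRT80 was at 165 and 181 TPM in Vehicle and at 178 and 174 TPM in GSK-LSD1. KRT12 was at 1.99 and 2.51 TPM against 3.09 and 3.58 TPM, with a log2 fold change of 0.60 (SE 0.231, adjusted p = 0.0992 by edgeR). KRT23, an epithelial type I keratin placed in no class, was at 1.14 and 1.68 TPM against 1.74 and 2.04 TPM, with a log2 fold change of 0.45 (SE 0.274, adjusted p = 0.294 by edgeR). Over the 18 tested keratins, 7 lay higher and 6 lower in both GSK-LSD1 libraries, where 30% and 30.2% of all tested genes did so. The median log2 fold change was 0.26, beside -0.0059 over all genes.

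The calls of this comparison rest on its own small spread. In 1 fit over all 8 libraries, which shares the wider spread of the other experiment, 1 keratin was called, KRT7 (adjusted p = 0.0204 by edgeR), beside 0.604% of all genes. In that fit KRT17 had an adjusted p = 0.173, KRT16 0.113, KRT34 0.115, KRT5 0.0611 and KRT81 0.210 by edgeR.

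The controls of the 2 experiments were set against each other to show where the keratins of untreated cells stood. Vector and Vehicle also differ in whatever else differed between the experiments, which cannot be told apart from the construct, and these libraries are the controls of the comparisons above, so the values are given side by side and no agreement is read from them. Of the 16 keratins tested among 16019 genes, 3 were called higher in Vector and 5 lower, where 5.79% of all genes were called higher and 10.2% lower. Among those called lower, KRT5, KRT23 and KRT40 had at most 5 counts in any Vector library. They entered the test only through the Vehicle libraries, so their direction was fixed once they were tested. Fewer genes were called over the whole table when a Vehicle library was left out, where the spread came from the Vector pair alone. That pair varied more, with a chi-square per degree of freedom of 25.6 against 6.23 for the Vehicle pair. Over all left-out libraries the log2 fold change stayed between 1.48 and 1.92 for KRT17 and between -1.05 and -0.92 for KRT18. Without Vehicle replicate 1, 0 keratins were called, beside 0.0722% of all genes. Without Vehicle replicate 2 the keratins called were 2, KRT17 and KRT18, beside 1.41% of all genes.

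KRT17 was 3.27-fold higher in Vector than in Vehicle, with a log2 fold change of 1.71 (SE 0.154, adjusted p = 0.00693 by edgeR). KRT16 differed by 1.89 (SE 0.295, adjusted p = 0.0136 by edgeR) and KRT34 by 2.56 (SE 0.556, adjusted p = 0.0267 by edgeR) on the log2 scale. All 3 were thus lowest in the Vehicle libraries, with GSK-LSD1 between Vehicle and the mean of Vector. KRT18 was lower in Vector, with a log2 fold change of -0.99 (SE 0.0734, adjusted p = 0.00609 by edgeR), and KRT8 by less, at -0.49 (SE 0.0595, adjusted p = 0.00933 by edgeR) with a fold of 1.40, under the limit. KRT7 had a log2 fold change of -0.01 (SE 0.0676). KRT7 thus differed from Vehicle in the GSK-LSD1 libraries and not detectably in the Vector libraries.

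KRT23 was at 0.157 and 0.136 TPM in Vector and at 1.14 and 1.68 TPM in Vehicle, with a log2 fold change of -3.25 (SE 0.472, adjusted p = 0.0119 by edgeR). KRT40, a type I hair keratin, was at 0.155 and 0.0804 TPM in Vector and at 0.477 and 0.905 TPM in Vehicle, with a log2 fold change of -2.57 (SE 0.569, adjusted p = 0.0282 by edgeR). Both overlap LOC107985072 on the opposite strand. KRT86 was lower in Vector by a log2 fold change of -0.82 (SE 0.139, adjusted p = 0.0158 by edgeR), while KRT81 had 0.13 (SE 0.242, adjusted p = 0.705 by edgeR). KRT5 had no count in Vector against 78 in Vehicle (adjusted p = 0.0200 by edgeR). Against a floor of 3 counts over the Vector group it was 22.4-fold lower, and the lower limit of the 95% exact counting interval was 17.8. KRT19 had 2 counts against 30, a ratio of 13.0 with a 95% exact counting interval of 3.29 to 112, with Vehicle higher. KRT15, KRT12, KRT20, KRT80 and KRT10 were not called, at log2 fold changes of 0.87 (SE 0.642), -0.57 (SE 0.520), -0.50 (SE 0.697), -0.13 (SE 0.0936) and 0.0032 (SE 0.234). Of the 16 tested keratins, 3 lay higher and 6 lower in both Vector libraries, where 35.6% and 35.3% of all genes did so, and the median log2 fold change was -0.31 beside 0.0023 over all genes.

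**Figure D4:**
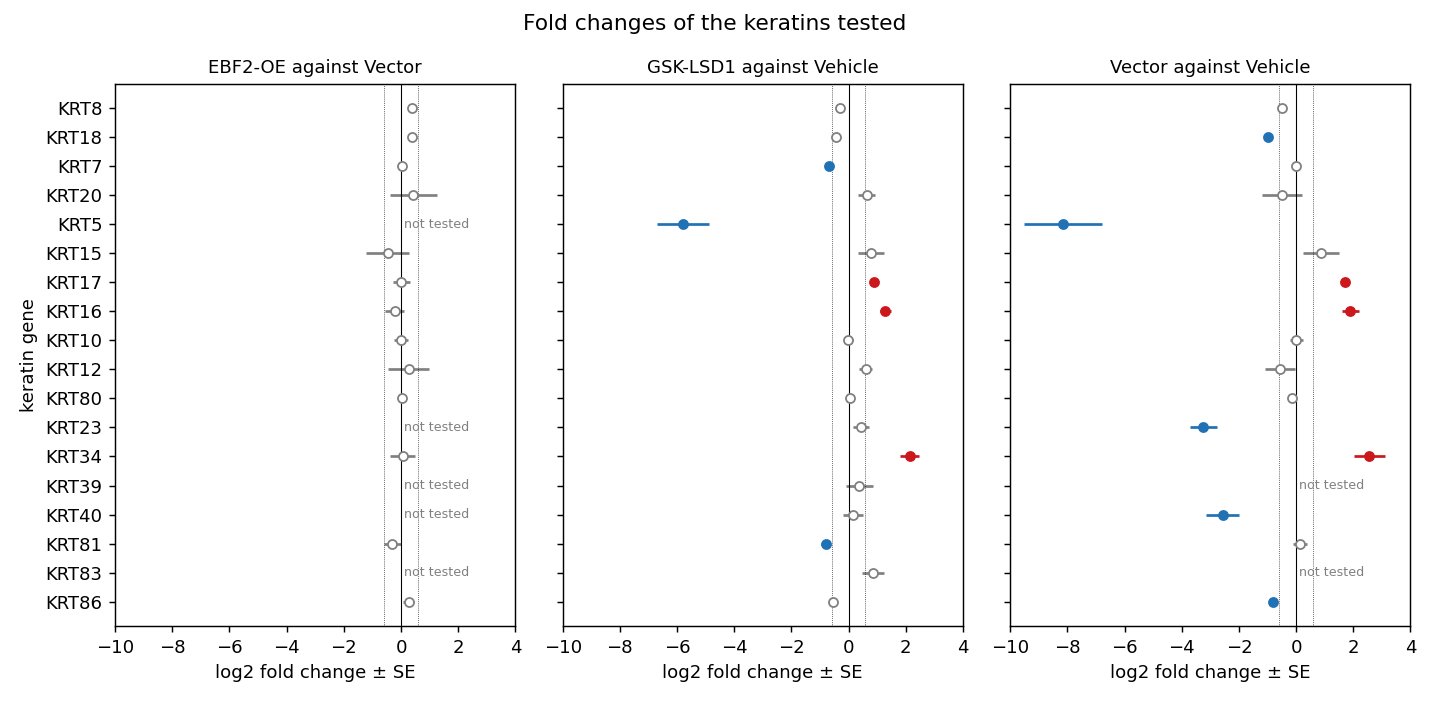
Log2 fold change (x axis, bars are SE, n = 2 libraries a group) of the 18 keratins tested in at least 1 comparison, with 1 panel for each comparison. Red points were called higher, blue points lower and open grey points were not called, and dotted lines mark a fold of 1.5. No keratin is coloured in EBF2-OE against Vector, 6 are in GSK-LSD1 against Vehicle and 8 in Vector against Vehicle.

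Whether the effects of EBF2-OE and GSK-LSD1 on a keratin differ was tested directly over all 8 libraries, as the log2 fold change of EBF2-OE against Vector minus that of GSK-LSD1 against Vehicle. Of 18 keratins tested among 16558 genes, 0 were called, as were 0% of all genes. At an unadjusted p under 0.05 with the fold limit the count was 7 keratins, where 4.34% of all genes passed. DESeq2 called 3, KRT18, KRT7 and KRT8, beside 0.345% of all genes. The difference was 0.82 for KRT18 (SE 0.137, adjusted p = 0.108 by edgeR), 0.72 for KRT7 (SE 0.127, adjusted p = 0.131 by edgeR) and 0.67 for KRT8 (SE 0.128, adjusted p = 0.175 by edgeR). For the genes that rose under GSK-LSD1 it was -1.52 for KRT16 (SE 0.406, adjusted p = 0.397 by edgeR), -0.89 for KRT17 (SE 0.344, adjusted p = 0.610 by edgeR) and -2.11 for KRT34 (SE 0.670, adjusted p = 0.492 by edgeR). The other gene among the 7 was KRT86, at 0.80 (SE 0.199, adjusted p = 0.327 by edgeR). A difference between the 2 treatments was thus not shown by the edgeR test for any keratin, and no likeness is shown either.

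Genes that work with keratins were taken as 5 lists. Of 20 desmosome and hemidesmosome genes, which anchor keratin filaments to the membrane, 14 were tested in GSK-LSD1 against Vehicle, with 0 called higher and 1 lower, beside 2.53% and 2.04% of all tested genes. This was PLEC (plectin), with a log2 fold change of -0.61 (SE 0.0782, adjusted p = 0.000542 by edgeR). The list's median was -0.05. Past the adjusted p alone, ITGB4 (-0.57, SE 0.0575), JUP (-0.37, SE 0.0563) and PKP3 (-0.41, SE 0.0921) were lower. PKP2 (0.51, SE 0.0983) was higher, all on the log2 scale. Of 11 plakins and keratin organizers 8 were tested and 0 were called, with a median of 0.03, and of 21 cornified envelope genes 2 were tested and 0 were called, with a median of -0.18. Among the organizers, FAM83H (-0.42, SE 0.0770) and KRTCAP2 (0.22, SE 0.0592) passed the adjusted p alone. Of 16 other intermediate filament genes 12 were tested and 0 were called, with a median of -0.14. The genes of this list that passed the adjusted p alone were VIM, NES and LMNB1. Their log2 fold changes were -0.46 (SE 0.0601, adjusted p = 0.000595 by edgeR), -0.43 (SE 0.0902, adjusted p = 0.00829 by edgeR) and -0.25 (SE 0.0567, adjusted p = 0.0113 by edgeR). At an unadjusted p under 0.05 with the fold limit these last 3 lists gave 0 as well, where 6.76% of all tested genes passed.

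Of 23 epithelial regulators of keratin genes, 16 were tested in GSK-LSD1 against Vehicle, with 1 called higher and 2 lower, beside 2.53% and 2.04% of all tested genes, and a median of -0.13. At an unadjusted p under 0.05 with the fold limit 3 were higher and 2 lower, beside 6.76% of all genes in either direction. TP63 is the one that was called higher, and it entered the test only through the GSK-LSD1 libraries. KLF4, a regulator of epithelial differentiation, was at 135 TPM in both Vehicle libraries and at 86.4 and 82.0 TPM in GSK-LSD1, with a log2 fold change of -0.64 (SE 0.0543, adjusted p = 3.8e-05 by edgeR). GATA6, a regulator of endoderm and of the classical type of pancreatic cancer, was at 11.4 and 7.59 TPM against 5.11 and 5.47 TPM, with a log2 fold change of -0.81 (SE 0.181, adjusted p = 0.0116 by edgeR). Past the adjusted p alone, ELF3 (-0.31, SE 0.0488), KLF5 (-0.53, SE 0.0815), PITX1 (-0.45, SE 0.0964) and TFAP2C (-0.28, SE 0.0832) were lower.

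In EBF2-OE against Vector 0 genes of these 5 lists were called, nor by an unadjusted p under 0.05 with the fold limit, and the list medians lay between -0.13 and 0.02. In Vector against Vehicle the counts of the lists stand beside 5.79% of all genes called higher and 10.2% called lower. Here 1 of 14 tested desmosome genes was higher (ITGA6, 0.66, SE 0.0869) and 2 were lower (JUP, -0.62, SE 0.118, and PKP2, -0.79, SE 0.176, all on the log2 scale), with a list median of -0.24. Of the keratin organizers FAM83H (-0.60, SE 0.145) and PPL (-1.02, SE 0.137) were lower, 2 of 8 tested, with a median of -0.25. CNFN, 1 of 2 tested cornified envelope genes, had a log2 fold change of -1.75 (SE 0.337). Of the 15 regulators tested, SOX9, a duct cell regulator, was higher at 1.76 (SE 0.363), and PITX1 (-0.91, SE 0.158) and TFAP2A (-0.88, SE 0.209) were lower, with a median of -0.16. Of 12 other intermediate filament genes 4 were lower, among them NES (nestin, -1.03, SE 0.144), BFSP1 (-0.78, SE 0.132) and PRPH (-2.53, SE 0.475), with DES at -1.20 (SE 0.329) and a list median of -0.31.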

How the data were processed

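Poly(A)-selected RNA of SW1990 cells was sequenced as paired reads, aligned to hg38 by the authors with HISAT2 at default settings and counted per gene with HTSeq. The annotation, the strand setting and the tool versions are not given in the sources used here. The authors deposited raw counts, gene lengths and TPM for 38637 genes. The deposited TPM was checked to equal the count divided by the length and rescaled, and served to compare levels between genes. Sample groups came from the labels.

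The main test was the two-sided quasi-likelihood test of edgeR (version 4.0.16, R 4.3.3) on TMM-normalized counts of the genes that filterByExpr kept at a count of 10, on the 4 libraries of each comparison and, for the difference of effects, on all 8. Benjamini-Hochberg adjustment ran over every tested gene, and calls needed an adjusted p under 0.05 and a fold above 1.5. DESeq2 1.42.0 and limma 3.58.1 served as alternatives, with other filters, scalings and left-out libraries, and the scripts were tested on simulated data. Groups with 0 counts were set against a floor of 3 counts over the group, with the lower limit of the exact 95% interval. Those with 1 to 3 counts were given as a ratio with an exact 95% interval.

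The libraries held 20453362 to 27054876 counts, so that a keratin with fewer than 10 counts in all supports no comparison. Replicates differed by more than sampling noise, with a chi-square per degree of freedom of 5.34 to 32.9, and none was counted as a repeat.

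The genes named are all keratins tested in at least 1 comparison, with full statistics for those called in any and for a set of well-known simple, basal, injury-induced and stratified keratins. KRT85, KRT36 and EBF2 were added after their values were seen, and of the other lists the called genes are named. For GSK-LSD1 against Vehicle the genes of these lists that passed the adjusted p alone are named as well. The members, classes and lists were chosen with earlier results of these data known. Sequences are from RefSeq.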

Additional observations from a re-analysis of the deposited data

How the results depend on the processing

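In EBF2-OE against Vector all 13 alternatives called 0 keratins, and the log2 fold change of KRT17, near 0, turned to -0.0028 with DESeq2, -0.0038 with no low-count filter, -0.0022 in 1 fit over all 8 libraries, -0.038 with limma on log2(CPM + 1) and -0.037 with the replicate block. In GSK-LSD1 against Vehicle 1 keratin (KRT7) was called in 1 fit over all 8 libraries, beside 0.604% of all genes. In Vector against Vehicle a filter of 10 counts in every library, which leaves fewer genes tested, called 5, beside 15.7% of all genes. For the difference of effects DESeq2 called 3 (0.345% of all genes), no low-count filter 6 (1.35%) and unadjusted p-values 7 (4.34%). For the other changes the cause was not tested.

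Leaving out 1 library gave a range of 5 to 7 keratins called in GSK-LSD1 against Vehicle, beside 2.63% to 6.07% of all genes. In Vector against Vehicle it gave 0 to 11, beside 0.0722% of all genes at the low end, without Vehicle replicate 1, and 17.5% at the high end, without Vector replicate 3. For the difference of effects it gave 0 to 2 (KRT18 and KRT8 without EBF2-OE replicate 2, beside 0.41% of all genes). In EBF2-OE against Vector it gave log2 fold changes on both sides of 0 for KRT15 (-1.43 to 0.53), KRT16 (-0.54 to 0.14), KRT17 (-0.48 to 0.37), KRT20 (-0.31 to 2.18), KRT34 (-0.39 to 0.72), KRT7 (-0.034 to 0.11), KRT80 (-0.064 to 0.15) and KRT81 (-0.57 to 0.036). The same held for KRT40 in GSK-LSD1 against Vehicle (-0.21 to 0.68), and in Vector against Vehicle for KRT15 (-0.096 to 1.48), KRT20 (-2.26 to 0.25), KRT7 (-0.059 to 0.040) and KRT81 (-0.19 to 0.40), none of which was called with all libraries. The summed levels moved by class. On normalized CPM the log2 ratio of GSK-LSD1 to Vehicle was -0.41 for simple keratins and 0.063 for stratified ones, beside -0.44 and 0.025 on TPM. Without the most abundant keratin of the class it was -0.53 for simple, -3.87 for basal and 1.24 for injury-induced keratins, beside -0.44, -1.22 and 0.86, and for Vector to Vehicle it was -0.72 for simple and -4.75 for basal keratins, beside -0.60 and -1.14.

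The replicate number as a block called 0 keratins in EBF2-OE against Vector (0.0321% of all genes) and 6 in GSK-LSD1 against Vehicle (4.75%) and changed no other keratin call. Same-numbered libraries deviated together with a correlation of 0.35 across genes in the first and -0.05 in the second, and with only 2 pairs the numbers were not taken to pair the samples.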
